A study of Mus musculus with 3 samples.

Results

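The genes described here code for the calcium pumps of the endoplasmic reticulum (*Atp2a1*, *Atp2a2*, *Atp2a3*), the calcium pumps of the plasma membrane (*Atp2b1*, *Atp2b2*, *Atp2b3*, *Atp2b4*) and the sodium-calcium exchangers (*Slc8a1*, *Slc8a2*, *Slc8a3*). Their probes were chosen by gene name alone: every non-control probe of the array whose gene name equalled 1 of these 10 symbols was taken, whatever its signal. This gave 9 of the 10 genes, out of 27845 gene names on the array, with 23 of the 41174 probes, and *Atp2b4* was not analysed here. Enough signal for a test was found for 15 of the 23 probes, out of 25838 probes tested in all. The samples were choroid plexus epithelium (CPE) of 3 different mice, all healthy adult C57BL/6, the strain of the reference as well. CPE cells were laser dissected from the lateral ventricles in brain cryosections of 20 µm, and their RNA was amplified and labelled with Cy5. Each mouse was hybridised on an array of its own against 1 common reference RNA, from retinal pigment epithelium (RPE) and choroid, labelled with Cy3. The dyes were not swapped, so a probe's preference for a dye and a difference between the tissues cannot be told apart.

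Calcium inside a resting cell is kept far below its concentration outside, and brief rises carry signals. The sarco/endoplasmic reticulum calcium ATPases (SERCA) pump calcium from the cytosol into the reticulum, which serves as the store for signalling and for protein folding. The plasma membrane calcium ATPases (PMCA) and the sodium-calcium exchangers (NCX) expel it from the cell, the pumps with ATP and the exchangers with the inward sodium gradient. The CPE, the cell layer that secretes cerebrospinal fluid, also moves calcium and other ions between blood and ventricle.

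RefSeq promoter windows (GRCm38.p6) of 300 bases, with 250 bases before and 50 from each transcription start, held 11 entries for 8 of the genes, with none for *Atp2a2* and *Atp2b3*. The windows of 3 genes are printed 5′ to 3′ because they stand for the 3 outcomes below: *Atp2a3* was higher in CPE than in the reference, *Atp2b1* was lower, and *Slc8a1* had no probe above background in CPE on all arrays. The *Atp2a3* window is chr11:72960919-72961218 on the plus strand, that of the first *Atp2b1* start is chr10:98914392-98914691 on the plus strand, and that of *Slc8a1* is chr17:81738338-81738637 on the minus strand. Capitals mark the GC box GGGCGG on either strand, including overlapping matches.
Atp2a3: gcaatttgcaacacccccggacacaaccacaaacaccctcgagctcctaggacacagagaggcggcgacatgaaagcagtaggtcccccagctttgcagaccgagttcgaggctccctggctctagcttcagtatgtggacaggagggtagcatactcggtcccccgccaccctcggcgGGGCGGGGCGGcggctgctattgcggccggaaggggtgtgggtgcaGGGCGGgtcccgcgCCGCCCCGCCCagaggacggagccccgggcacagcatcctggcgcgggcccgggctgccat
Atp2b1: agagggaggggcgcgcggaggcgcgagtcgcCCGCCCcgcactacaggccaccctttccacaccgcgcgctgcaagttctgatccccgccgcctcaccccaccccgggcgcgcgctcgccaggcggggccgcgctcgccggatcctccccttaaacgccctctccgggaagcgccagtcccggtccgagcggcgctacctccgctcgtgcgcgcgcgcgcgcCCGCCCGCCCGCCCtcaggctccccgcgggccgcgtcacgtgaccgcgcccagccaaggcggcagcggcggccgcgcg
Slc8a1: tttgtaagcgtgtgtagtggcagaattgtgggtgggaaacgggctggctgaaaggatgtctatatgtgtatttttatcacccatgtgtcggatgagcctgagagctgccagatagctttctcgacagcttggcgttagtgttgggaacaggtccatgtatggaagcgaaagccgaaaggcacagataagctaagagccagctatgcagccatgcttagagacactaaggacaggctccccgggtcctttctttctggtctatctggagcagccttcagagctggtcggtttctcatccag
The GC box was present 5 times in the *Atp2a3* window and 4 times in that of *Atp2b1*, and this motif had no match in the *Slc8a1* window. Among the windows not printed, the second *Atp2b1* start had 3 matches, the *Atp2b2* starts 2, 0 and 3, and *Slc8a2* 1. Those of *Atp2a1*, *Atp2b4* and *Slc8a3* had 0. Over all 32851 windows of the same length, 35.7% held at least 1 match. CpG dinucleotides numbered 25 for *Atp2a3*, 54 for *Atp2b1* and 9 for *Slc8a1*, against a median of 7 over all windows, which placed *Atp2b1* at the 99.7th percentile. No window of these genes held the TATA box TATAAA (13.6% of all windows) or TAATCC, the core motif of OTX factors (7.06%), on either strand. These matches describe the letters of the windows and were not tested as binding sites.

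Identity of the tissue and signal of the arrays were checked first. Of 11 CPE markers, 10 had a probe, all 10 were above background in every mouse and 9 were higher in CPE, with a median log2 ratio of 3.23. The exception was *Otx2*, at 0.14. Markers of the tissues in the reference ran the other way, with 5 of 5 photoreceptor genes and 6 of 6 genes of RPE and melanocytes lower in CPE. All of them were still above background in CPE on all 3 arrays. *Gnat1* (percentile 93.6), *Pmel* (93.1) and *Dct* (92.5) lay above the 90th percentile in CPE, and the others between the 50th and the 90th. A high percentile in CPE therefore does not tell which cells the RNA came from. Stroma genes were lower in CPE for 4 of 4, and smooth muscle and pericyte genes for 2 of 6, with 0 higher. All were above background in every CPE sample. Their CPE percentiles ran from 84.4 (*Col3a1*) to 98.3 (*Dcn*) for stroma, and from 56.4 (*Cnn1*) to 97.4 (*Acta2*) for smooth muscle and pericytes. The part of these cells in the CPE levels was not tested. The share of probes above background in the CPE channel was 58.5% in mouse 1, 46.0% in mouse 2 and 85.6% in mouse 3. The background measured around the spots in the CPE channel was alike, at 57, 56 and 58 intensity units in mice 1 to 3. The main ratios used this local background. On the array of mouse 3 the scanner software set a brighter background of its own, at 363 intensity units against 81.2 and 82.6. For signals near the background, values of mouse 3 are therefore given apart.

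CPE levels are given as the log2 mean intensity after normalization between arrays, and as the percentile of that level among all probes of the array. The classes were high (above the 90th percentile), moderate (50th to 90th), low (10th to 50th) and very low (under the 10th), set on the mean level of the 3 mice. High probes numbered 3 of 23 (13.0%), against 10% of all probes, and they belonged to *Atp2a2*, *Atp2b1* and *Atp2b3*. A further 9 were moderate, 9 low and 2 very low. The number in the high class was 0 when only probes above background in CPE on all arrays were ranked, and 0 when only curated transcripts were ranked, which kept 14 of the 23 probes and left out those of *Atp2a2* and *Atp2b3* in this class. The 3 high probes were in the store and surface pumps, and no exchanger probe was high. Because probes bind their targets with different strength, these percentiles rank probes and not the amounts of different transcripts.

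**Figure D1:**
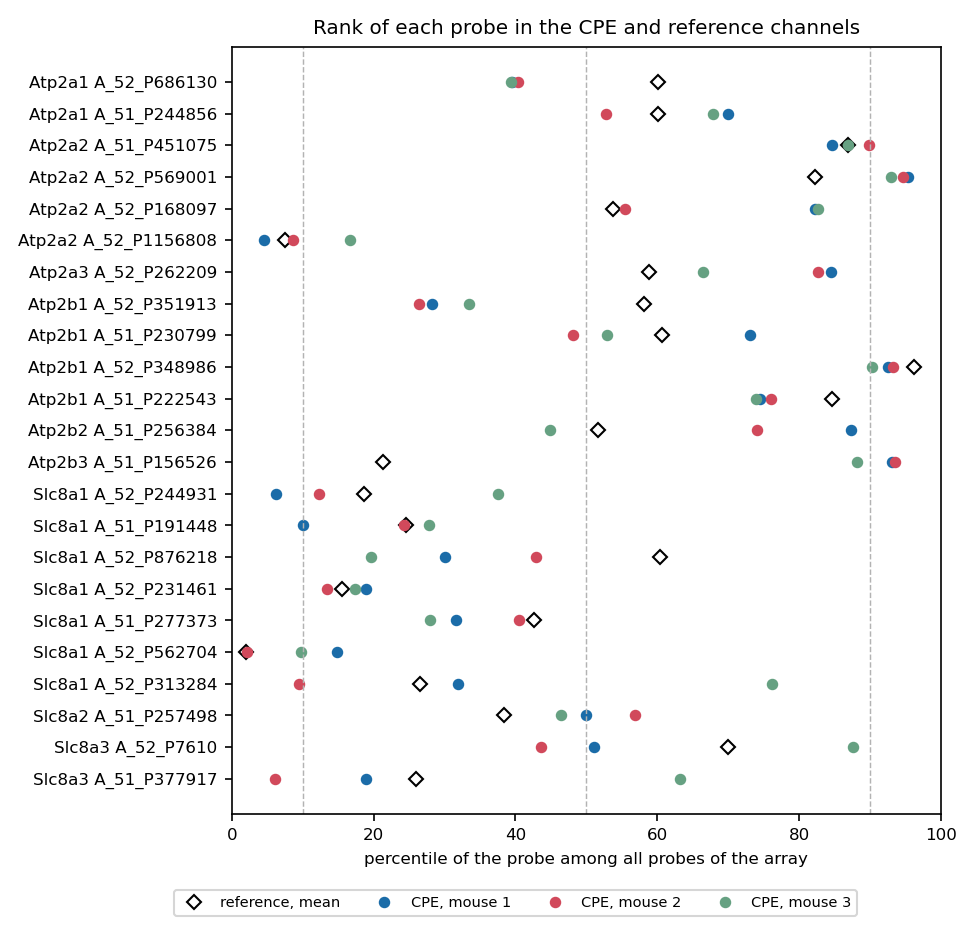
Percentile of each of the 23 probes among all probes of an array (x axis, 0 to 100) for the CPE of each mouse (filled points) and for the reference (open diamonds, percentile of the mean level). Dashed lines mark the 10th, 50th and 90th percentiles that bound the classes. *Atp2b3* lies at 88.2 to 93.5 in CPE and at 21.3 in the reference, while the *Slc8a1* probes lie low and scatter between mice.

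Above background in CPE on all 3 arrays were 9 of the 23 probes (39.1%, against 44.9% of all probes). Another 3 passed on 2 arrays and 11 on 1 array. For all 11 that array was the one of mouse 3, for which the scanner software set the brighter background. In the reference 14 probes (60.9%, against 61.5%) passed on all arrays. No probe of these genes was saturated.

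The comparison of CPE with the reference asked which of these genes differ between the epithelium and the RPE and choroid. Ratios are log2 CPE over reference, with the standard error (SE) of limma over 3 mice and p adjusted over all 25838 tested probes. Calls needed an adjusted p under 0.05 together with a 2-fold or larger difference. In bulk RNA, fewer cells of a type and less RNA per cell cannot be told apart. Of the 15 tested probes of these genes, 6 were called, against 17.3% of all tested probes. Higher in CPE were 5 of them (7.09% of all probes), from *Atp2a2* (2 probes), *Atp2a3*, *Atp2b2* and *Atp2b3*. Lower was 1 (10.2% of all probes), from *Atp2b1*. The median ratio was 0.039 over the 15 probes and -0.040 over all tested probes. Among all calls 41.1% were higher in CPE, and 67.0% were when arrays were centred on their median in place of loess, which moved the median ratio over all tested probes to 0.091.

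**Figure D2:**
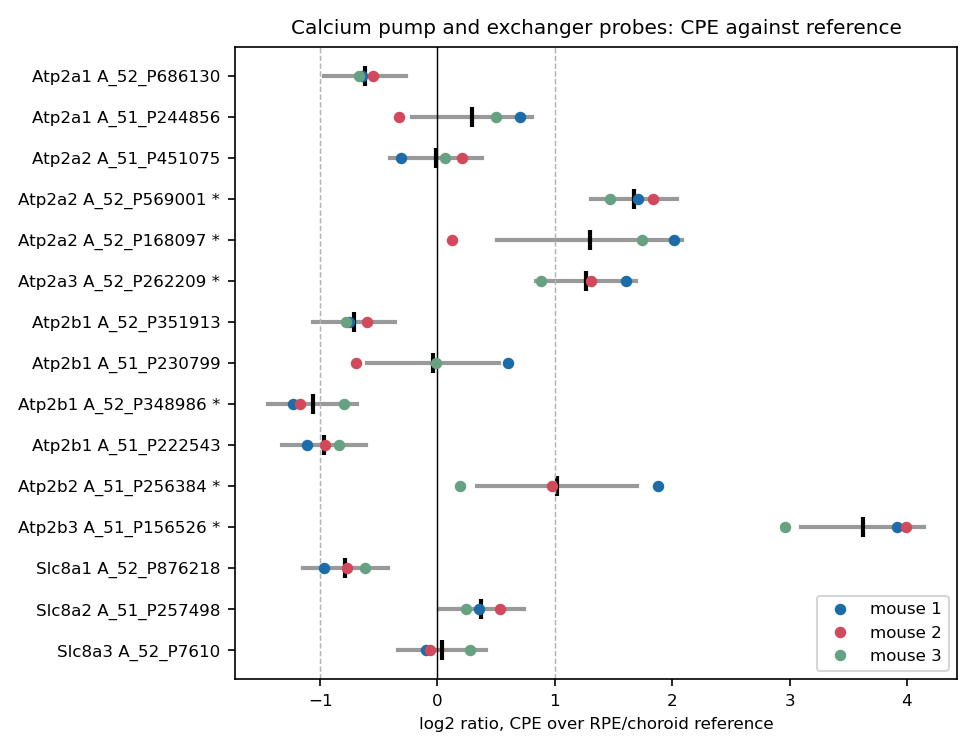
Log2 ratio of CPE over reference (x axis) for the 15 tested probes. Coloured points are the 3 mice, black ticks the mean and grey bars the 95% confidence interval of limma, an asterisk marks a call, and dashed lines mark a 2-fold change. *Atp2b3* stands at 3.62 and the called *Atp2b1* probe at -1.06, and 1 *Atp2a2* probe spreads from 0.13 in mouse 2 to 2.02 in mouse 1.

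*Atp2a2* codes for SERCA2, the store pump found in most cell types and the main one of heart. Its 4 probes lie on the minus strand of chromosome 5 (mm8), and their order along the gene is given as the distance from the most 3′ probe. The probe A_52_P569001 (122717458 to 122717517, 3146 bases 5′ of it) had CPE levels of 12.11, 11.60 and 11.36 in mice 1 to 3 and lay at percentile 94.5. All 3 mice were well above the reference, whose levels on the same arrays were 9.41, 9.42 and 9.17. The ratios were 1.71, 1.84 and 1.47, with a mean of 1.67 (SE 0.16, 3.19-fold, adjusted p = 0.000213). The call held in every alternative processing tried, with ratios from 1.59 to 2.31.

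The other probes of *Atp2a2* did not give the same ratio. The most 3′ probe, A_51_P451075 (122714312 to 122714371), had CPE levels of 10.30, 10.64 and 10.47 and lay at percentile 87.8. Its ratios of -0.31, 0.21 and 0.06 lay on both sides of 0, with a mean of -0.012 and a 95% confidence interval of -0.40 to 0.38. Within each array it was below A_52_P569001, by -2.02, -1.63 and -1.41 on the log2 scale (mean -1.69, SD 0.31). An exact sign-flip test over 3 mice cannot give a two-sided p under 0.25, and gave 0.25 here.

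Further 5′, A_52_P168097 (122721268 to 122721327, 6956 bases from the most 3′ probe) split the mice. Its CPE levels were 10.02 in mouse 1, 7.57 in mouse 2 and 10.05 in mouse 3, and its ratios 2.02, 0.13 and 1.74. Mouse 2 was close to the reference and the other mice far above it. The mean ratio of 1.30 was called (SE 0.34, 2.45-fold, adjusted p = 0.019), and the call was lost without mouse 1 (0.93, adjusted p = 0.0934), without mouse 3 (1.07, adjusted p = 0.0847) and with the scanner's own log ratio (1.70, adjusted p = 0.084). The most 5′ probe, A_52_P1156808 (122757362 to 122757421), stems from a cDNA clone described as unclassifiable. It was very low, at percentile 7.83, above background in the CPE of mouse 3 alone, and was not tested.

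**Figure D3:**
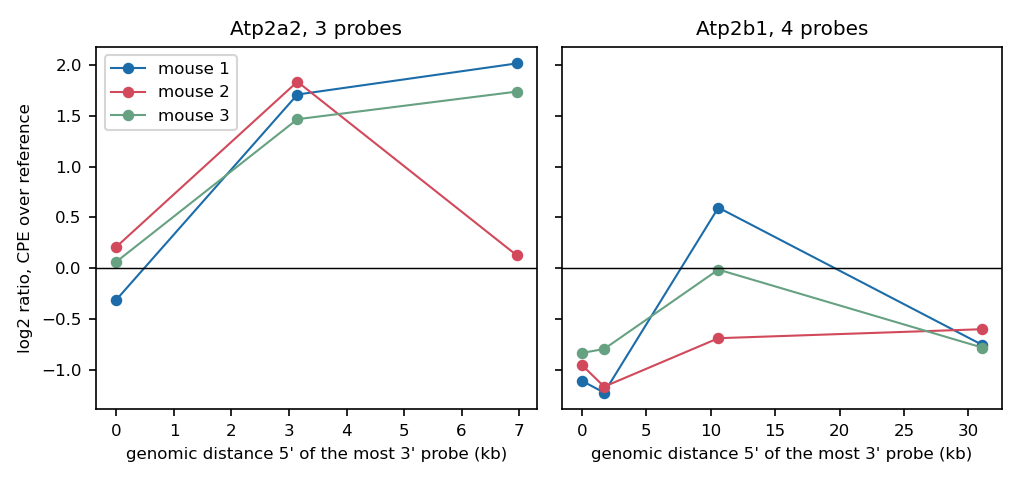
Log2 ratio of CPE over reference (y axis) of the tested probes of *Atp2a2* and *Atp2b1* against genomic distance 5′ of the gene's most 3′ probe (x axis, kb), 1 line per mouse. The most 3′ *Atp2a2* probe lies near 0 and the next near 1.67 in all mice, and mouse 2 leaves the other mice at the third probe.

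*Atp2a3* codes for SERCA3, a store pump known from blood cells, endothelium and some epithelia. Its 1 probe, A_52_P262209 (chromosome 11, 72808670 to 72808729, plus strand), had CPE levels of 10.27, 9.71 and 8.92 and lay at percentile 80.3, in the moderate class. The reference lay at percentile 58.8. Ratios were 1.61, 1.31 and 0.88, so CPE was higher in 3 of 3 mice, with a mean of 1.27 (SE 0.18, 2.41-fold, adjusted p = 0.00156). Every alternative that tested it against 0 kept the call, with ratios from 1.10 to 1.92. Blood and endothelial cells also express this gene. Of the marker list for macrophages and blood, 6 of 7 genes were lower in CPE, with summed intensities of 78639 to 161594 against 557864 to 794367 in the reference. Of the endothelial list 0 of 5 were called in either direction, with sums of 29715 to 38297 against 28481 to 33373. *Pecam1* (0.95, adjusted p = 0.0434), *Cdh5* (0.94, adjusted p = 0.0140) and *Cldn5* (-0.54, adjusted p = 0.0328) passed the p limit but stayed under 2-fold. *Emcn* lay at 0.38 and *Kdr* at -0.19. The part of blood and endothelial cells in the *Atp2a3* ratio was not tested.

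*Atp2a1* codes for SERCA1, the store pump of fast skeletal muscle. Its 2 probes on chromosome 7, minus strand, were near each other in the reference, at percentiles of 60.04 and 60.03, and apart in CPE. A_51_P244856 (126239337 to 126239396) lay at CPE percentiles of 70.0, 52.8 and 67.8, with ratios of 0.71, -0.33 and 0.50 and a mean of 0.29 that was not called (95% confidence interval -0.22 to 0.80, adjusted p = 0.332). The more 3′ probe, A_52_P686130 (126237732 to 126238075), had ratios of -0.64, -0.55 and -0.67, with a mean of -0.62 (SE 0.15, adjusted p = 0.0139) that was under 2-fold and was above background in CPE in mouse 3 alone. Neither probe was called, and they differed in sign. Of the skeletal muscle markers 6 of 7 were lower in CPE than in the reference, with summed intensities of 3419 to 10178 against 42593 to 53205 in the reference. *Ckm* and *Pvalb* were not above background in the CPE of every mouse. Their part in the *Atp2a1* ratios was not tested.

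*Atp2b3*, which codes for PMCA3, a plasma membrane pump known mainly from brain, had the highest ratio of these pumps and exchangers. Its probe, A_51_P156526 (chromosome X, 69810803 to 69810862, plus strand), had CPE levels of 11.55, 11.31 and 10.62 and lay at percentiles of 93.2, 93.5 and 88.2. Reference levels were 7.18, 7.50 and 7.46, at percentile 21.3. The channels did not overlap, and CPE was higher by 3.91, 3.99 and 2.96 in the 3 mice. The mean ratio was 3.62 (SE 0.23, 12.3-fold, adjusted p = 3.36e-05), and the call held in every alternative, with ratios from 3.21 to 4.82.

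Brain tissue and ependyma border the choroid plexus, and their markers were read beside *Atp2b3*. Of 6 neuronal genes, 4 were lower in CPE than in the reference and none was higher, with summed intensities of 3450 to 5379 against 57446 to 66720. A ratio to this reference, which also holds photoreceptor RNA, does not give the amount of neuronal RNA in CPE. Of 4 astrocyte genes, all above background in CPE, *Aldh1l1* was higher (1.01, SE 0.16, adjusted p = 0.00208) and *Aqp4* lower (-1.28, SE 0.19, adjusted p = 0.00163), with sums of 8478 to 11942 against 6213 to 8763. Of the 6 neuronal genes, 5 were above background in the CPE of every mouse, at CPE percentiles of 46.2 (*Rbfox3*) to 79.4 (*Snap25*). The exception was *Slc17a7*, the transporter that defines many excitatory neurons. Of 3 ependymal genes, 1 had a probe: *Foxj1*, the regulator of motile cilia, was at percentile 95.2 and higher in CPE (2.98, SE 0.36, adjusted p = 0.000628), with intensities of 5578 to 14261 against 453 to 1304. With this gene alone, ependymal RNA and expression by CPE cells cannot be told apart. The part of neurons, astrocytes and ependymal cells in the *Atp2b3* ratio was not tested.

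*Atp2b1* codes for PMCA1, the plasma membrane pump found in nearly all cells, and was the gene with a called decrease. Its 4 probes lie on the plus strand of chromosome 10. A_52_P348986 (98453269 to 98453329) was bright in both tissues, with CPE levels of 11.41, 11.24 and 10.90 at percentile 92.3 and the reference at percentile 96.2. CPE was below the reference by -1.23, -1.17 and -0.80, with a mean ratio of -1.06 (SE 0.16, 2.09-fold lower, adjusted p = 0.00203). The call was lost without mouse 1 (-0.98) and with median centring in place of loess (-0.34, adjusted p = 0.460). So *Atp2b1* was at once in the high class of CPE and lower there than in the reference.

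Of the other *Atp2b1* probes, the most 3′, A_51_P222543 (98455001 to 98455060), had ratios of -1.11, -0.96 and -0.84, close to those of its neighbour 1731.5 bases away. Its mean of -0.97 (SE 0.15, adjusted p = 0.00234) stayed just under 2-fold and was not called. A_51_P230799 (98444290 to 98444582, 10594.5 bases away) spread from 0.60 in mouse 1 to -0.69 in mouse 2, with -0.01 in mouse 3 and a mean of -0.036. A_52_P351913 (98423949 to 98424008), from another clone described as unclassifiable, was low at percentile 27.6 and above background in CPE in mouse 3 alone. Its ratios were -0.76, -0.60 and -0.78, with a mean of -0.71 (SE 0.15, adjusted p = 0.0082) that was not called. The probes differed by up to 1.03 in mean ratio, between A_51_P230799 and A_52_P348986, with an SD of 0.71 over mice and an exact sign-flip p of 0.25.

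Mouse 2 stood lowest at 1 probe each of *Atp2a2*, *Atp2b1* and *Atp2a1*, and each of these lay 5′ of another tested probe of its gene. The other 3 tested probes with such a position did not show it: the ratio of mouse 2 differed from the mean of the other mice by 0.25 at A_52_P569001, by 0.17 at A_52_P351913 and by -0.16 at A_52_P348986. At the 3 low probes this difference was -1.75 at A_52_P168097, -0.98 at A_51_P230799 and -0.93 at A_51_P244856. Among all tested probes these differences lay at percentiles of 0.51, 3.13 and 3.56. The 3 probes were picked because mouse 2 was lowest there, so low percentiles follow from that pick. At A_51_P230799 and A_51_P244856 CPE was above background on 2 of 3 arrays, with unnormalized CPE intensities in mouse 2 of 99.0 and 108. The array of mouse 2 also had the fewest probes above background in CPE, and the part of its signal in these values was not tested.

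*Atp2b2* codes for PMCA2, a pump known from neurons, hair cells and mammary epithelium. Its probe, A_51_P256384 (chromosome 6, 113714130 to 113714189, minus strand), had CPE levels of 10.61, 8.87 and 8.06 at percentiles of 87.4, 74.1 and 44.9, the widest range of percentiles among the called probes of these genes. The ratios of 1.88, 0.98 and 0.19 were all positive and far apart. Their mean of 1.02 was called (SE 0.29, 95% confidence interval 0.34 to 1.70, 2.02-fold, adjusted p = 0.0273) close to both limits. Without mouse 1 it was 0.59 (adjusted p = 0.167). The call also ended without background correction (0.96, adjusted p = 0.0506), with the scanner's log ratio (1.28, adjusted p = 0.0509) and with the scanner's background surface (0.93, adjusted p = 0.0294).

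The exchangers gave no call. *Slc8a1* codes for NCX1, the exchanger of heart and many other tissues, and had 7 probes on the minus strand of chromosome 17, none above background in CPE except on the array of mouse 3. The 1 tested probe, A_52_P876218 (81281431 to 81281449), was above background in the reference on all arrays and lay at percentile 26.4 in CPE. Its ratios were -0.97, -0.77 and -0.61, lower in 3 of 3 mice, with a mean of -0.78 (SE 0.16, 1.72-fold, adjusted p = 0.0066) that did not reach 2-fold. The listed span of A_51_P191448 (81281431 to 81281439) lies within that of the tested probe, so these probes cannot be taken as independent readings of the gene. In the reference A_51_P191448 lay at percentile 24.6 and the tested probe at 60.4. Of the 6 probes not tested, A_52_P562704, A_52_P231461, A_52_P244931, A_51_P191448 and A_51_P277373 lay at percentiles of 5.31 to 30.1 in CPE, and A_52_P313284 (81353188 to 81353247) lay at 52.9. That last value came from mouse 3, where the level was 9.54 against 7.17 and 6.89 in mice 1 and 2, and the reference on the same array was also raised, at 8.54 against 6.94 and 6.88.

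*Slc8a2* codes for NCX2, an exchanger known from brain. Its probe, A_51_P257498 (chromosome 7, 15318507 to 15318566, plus strand), was the only exchanger probe above background in CPE on all 3 arrays, and it was above background in the reference on 1. CPE percentiles were 49.9, 56.9 and 46.4, next to the line between low and moderate. Ratios of 0.36, 0.53 and 0.24 gave a mean of 0.37 (SE 0.15, 95% confidence interval 0.017 to 0.73), which did not pass the test (adjusted p = 0.0912).

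*Slc8a3* codes for NCX3, an exchanger of brain and skeletal muscle, and had 2 probes on the minus strand of chromosome 12. A_52_P7610 (82117443 to 82117502) had CPE levels of 7.64, 7.27 and 10.55, with 8.01, 8.05 and 9.39 in the reference. Both channels were bright on the array of mouse 3 and dim on the others. The ratios of -0.10, -0.06 and 0.27 lay around 0, with a mean of 0.039 (SE 0.16, adjusted p = 0.870). A_51_P377917 (82123835 to 82135580) was not tested and showed the same split, at CPE percentiles of 18.9, 6.06 and 63.3.

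The spread of these probes over the 3 arrays was somewhat above that of all probes. The reference is the same RNA on every array, so its spread is not one between mice. In the CPE spread, mouse and array cannot be told apart. The median SD of the CPE level was 0.43 over the 23 probes and 0.38 over all probes, and in the reference channel 0.45 and 0.36. Probes nearest to *Atp2b3* in all 6 values (both channels on 3 arrays, Euclidean distance on the log2 scale) were those of *Mycbpap* (distance 0.705, ratio 3.18), *Iqub* (0.892, ratio 2.96) and *Serpinb1b* (1.21, ratio 4.40). Those nearest to the called *Atp2b1* probe were of *Zfp960* (0.550, ratio -0.70), *Rnf220* (0.647, ratio -0.72) and *Arl6* (0.664, ratio -0.78).

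Other genes of calcium handling were read from a list of 43 genes, grouped by role, and each gene was represented by its brightest probe, judged by the mean level of CPE and reference together. Tested were 40 of them, of which 10 were higher in CPE, 8 were lower and 22 were not called. Taking the brightest probe of every gene name on the array in the same way, 8.12% of 17635 tested were higher and 11.2% lower, and the counts by role below have this same background. In the high class of CPE were 17 of the 43, against 12.7% of the brightest probes of all gene names. The median ratio was 0.31 for the list and -0.041 for all gene names. Over all 83 probes of the list, 14 of the 67 tested were higher (7.09% of all probes) and 13 lower (10.2% of all probes), with a median ratio of 0.18.

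Binding partners and regulators of the pumps moved in both directions, with 3 of 9 higher and 2 lower. *Pln* (phospholamban, the inhibitor of SERCA2) was higher by 1.08 (SE 0.25, adjusted p = 0.0117), with 1.56, 1.38 and 0.31 in the mice. *Sln* (sarcolipin, an inhibitor of SERCA1) was lower by -3.09 (SE 0.22), at CPE percentile 31.5, with CPE above background on 2 of 3 arrays. *Bsg* (basigin, a membrane glycoprotein that associates with PMCA pumps) was higher by 2.64 (SE 0.29) at percentile 99.9, with its CPE spot saturated on 1 array. *Fxyd1* (phospholemman, which regulates the sodium pump and NCX1) was higher by 2.51 (SE 0.19). *Nptn* (neuroplastin, a subunit of PMCA pumps) lay at percentile 99.3 and at 0.94 was not called, and *Calm2* (calmodulin, the calcium sensor that activates PMCA pumps) was lower by -1.29 (SE 0.17).

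Genes of the calcium store and of its refilling were higher in part. Of the 5 store-operated entry genes, 3 were higher and none lower: *Orai1* (1.33) and *Orai2* (1.69), channels of the plasma membrane, and *Stim2* (1.11), a sensor of store calcium. *Stim1* (0.86), *Orai3* (0.65) and another *Stim2* probe (0.68) were not called. Calcium-binding chaperones of the reticulum included 3 higher of 7, *Calr* (calreticulin, 1.94), *Hspa5* (BiP, 1.71) and *Hsp90b1* (GRP94, 1.93), all at or above percentile 99.0. Another *Hsp90b1* probe was not called (0.38, adjusted p = 0.497), with 1.58, -0.92 and 0.48 in the mice. The brightest *Canx* probe was not called (0.73), and another *Canx* probe was higher (1.40). Among the release channels, *Itpr1* was higher (2.10, SE 0.15, percentile 99.4). The other inositol trisphosphate receptors, *Itpr2* (-1.35) and *Itpr3* (-1.72), were lower on their brightest probes. Of the 4 tested *Itpr2* probes 1 was called, and the others lay at -0.043, -0.46 and -0.050. No ryanodine receptor was called on its brightest probe. *Slc24a2*, *Slc24a4* and *Ryr3* were not tested on that probe, and another *Ryr3* probe, A_52_P328350, was called lower, with its CPE signal above background on 0 of 3 arrays.

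Among the other exchangers every call was in the lower direction. These were 3 of 6, *Slc24a1* (-3.02), the exchanger of rod photoreceptors, *Slc24a3* (-1.29) and *Slc24a5* (-1.99), the exchanger of melanosomes, which still lay at percentile 93.1. The reference holds photoreceptor and melanocyte RNA, with summed photoreceptor markers of 445082 to 655952 intensity units against 13441 to 16910 in CPE, and those of RPE and melanocytes at 582660 to 870793 against 13931 to 16727. Their part in these ratios was not tested. On their brightest probes neither secretory pathway pump (*Atp2c1*, *Atp2c2*) and none of the 3 mitochondrial uptake genes was called. Of the other 3 *Atp2c1* probes 1 was called lower (A_51_P204630, -1.43, SE 0.15, adjusted p = 0.000354), with CPE above background on 2 of 3 arrays. The cytosolic buffers had 1 call of 4, *Calb2* (calretinin), lower by -1.12 (SE 0.23) with CPE above background on 2 of 3 arrays, and the calcium-sensing receptor *Casr* was not called.

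**Figure D4:**
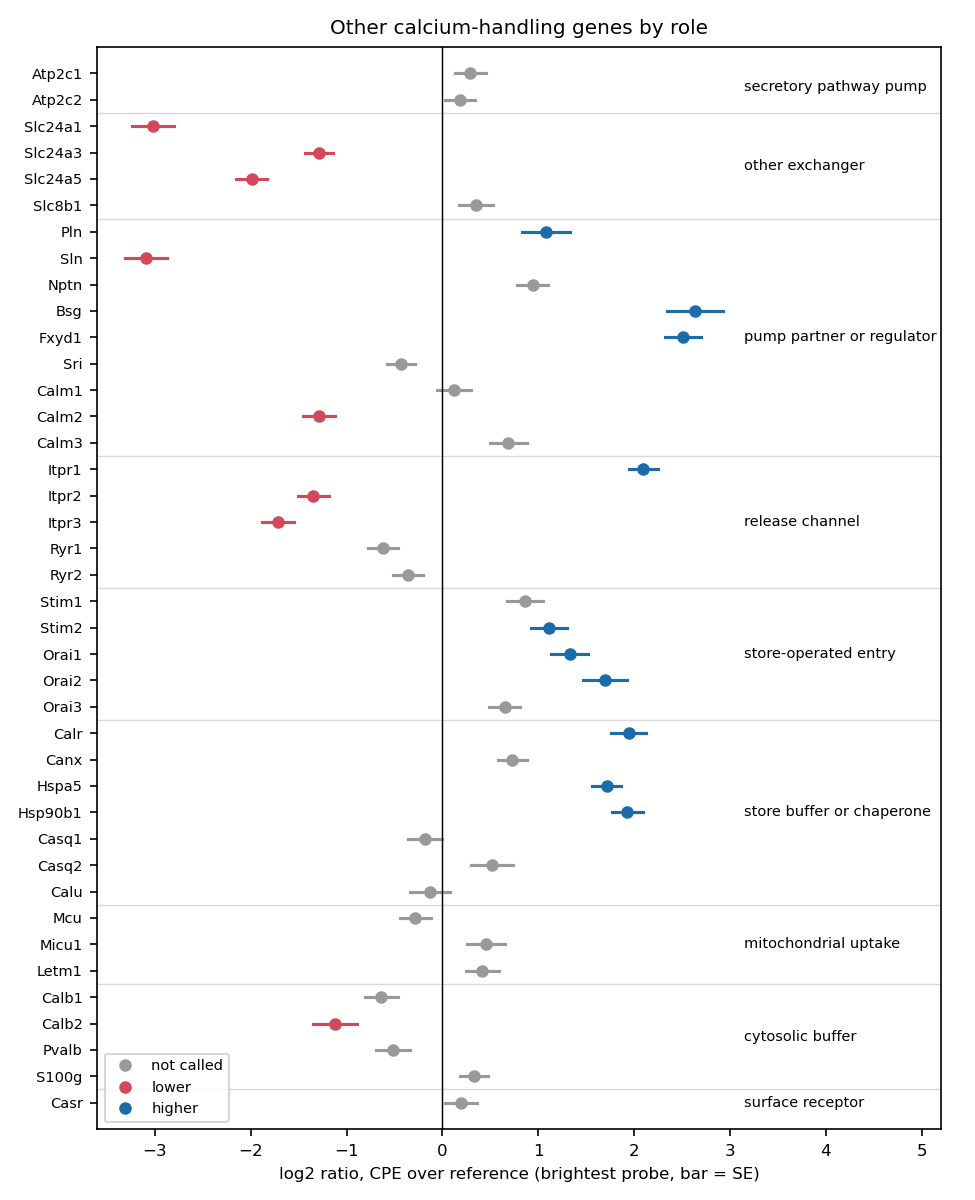
Log2 ratio of CPE over reference (x axis) for the 40 tested genes of the calcium list, by role, each from its brightest probe. Points are means over 3 mice, bars the SE of limma, and colour gives the call. Calls are higher for *Orai1*, *Orai2* and *Stim2* and for 3 reticulum chaperones, and the receptors *Itpr1* and *Itpr3* lie at 2.10 and -1.72.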

How the data were processed

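Two-colour Agilent arrays of CPE from 3 separate mice were used, each against the same RPE and choroid RNA. Per the file headers, the deposited scanner tables hold linear intensity values for both channels, a log10 ratio of processed red over green, and flags for saturation and for signal well above background. The authors made them with Agilent Feature Extraction 9.5.3.1 and used R 2.14.0 and limma for a deposited table of log2 values, whose rank correlation with the CPE channel (0.998, 0.998 and 0.9997 on the 3 arrays) shows them to be CPE levels. Its medians were 6.86, 6.82 and 6.85.

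R 4.3.3 with limma 3.58.1 was used here. Spots for controls and those with an outlier mark were dropped, and repeated spots were averaged. Levels were log2 mean intensities after Aquantile, without background correction. Ratios followed normexp (offset 50) and loess, for probes whose CPE or reference signal passed the background flag on each of the 3 arrays, with limma's moderated test against 0 and Benjamini-Hochberg adjustment. The reference is 1 RNA, so its spread is not in the error, and 3 arrays limit the precision. The code was tested on simulated data. Every probe of the genes was named, as were called genes of the calcium list and the 3 probes nearest to the genes of highest and lowest ratio. The genes and lists were chosen with earlier results of these data known. Coordinates are those of the scanner files (mm8), and exons and introns were not analysed here. Of 41174 probes, 23374 (56.8%) matched a RefSeq transcript, among them 14 of the 23, and the others kept the name in the file. Alternatives covered background correction, normalization, filters, array weights, the call rule, ranking and each mouse left out.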

Additional observations from a re-analysis of the deposited data

How the results depend on the processing

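The calls of *Atp2b3*, *Atp2a2* (A_52_P569001) and *Atp2a3* held in all alternatives, except that limma's treat test against a 2-fold change kept only the first 2. Treat gave 2 calls, 2 higher and 0 lower (0 lower also at an unadjusted p under 0.05), and 14, 8 and 6 for the calcium list. Lower calls among the pumps and exchangers numbered 5 with the scanner's log ratio, 2 with array weights and 0 with median centring (3 at an unadjusted p under 0.05 in limma). These 3 were *Atp2a1* A_52_P686130 (-0.76), *Atp2b1* A_52_P351913 (-0.89) and *Slc8a1* A_52_P876218 (-0.96), all under 2-fold. The *Atp2b1* probe called in the main analysis, A_52_P348986, was not among them (-0.34). With the scanner's log ratio the 5 added *Atp2a1* (-1.58), *Atp2b1* (-1.85 and -1.04) and *Slc8a1* (-2.24), and *Slc8a2* was higher there (1.45). Leaving out a mouse gave 3 to 6 calls, 3 to 5 higher and 0 to 2 lower, lowest without mouse 1, where *Atp2b3*, *Atp2a2* and *Atp2a3* kept theirs. The list had 8 lower calls when both channels had to be above background. No probe (0) was high when only probes above background in CPE were ranked, or only curated transcripts, a ranking that left out 2 of the 3 high probes. Signs turned only at uncalled probes near 0. *Atp2a2* A_51_P451075 was 0.0611 with the scanner's ratio, 0.58 with median centring and -0.124 to 0.137 with a mouse left out. *Slc8a3* A_52_P7610 was -0.356 with the scanner's ratio, -0.11 with median centring, -0.026 with array weights, -0.0657 with the background surface and -0.0785 to 0.106 with a mouse left out. *Atp2b1* A_51_P230799 was 0.11 with median centring, 0.137 with array weights and -0.353 to 0.291 with a mouse left out. The background surface was chosen after seeing the data. The causes were not tested. No paired analysis was possible because there is 1 group and every array carries the same reference.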
